A study of Mus musculus with 28 samples.

Results

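The response of mouse ear skin to a phorbol ester was measured in animals that had all received a heat shock protein 90 (HSP90) inhibitor, so that TPA was the only treatment that differed. The comparison took its members by treatment label alone: 10 mice given TPA and RGRN-305 (TPA+RGRN-305 1 to 10) were set against 4 mice given RGRN-305 without TPA (RGRN-305 1 to 4), which is 14 of the 28 mice sequenced, and all genes with enough counts were tested. TPA is 12-O-tetradecanoylphorbol-13-acetate, and RGRN-305 is the HSP90 inhibitor. In TPA+RGRN-305 mice the ear was painted with 1 mg of RGRN-305 in acetone and, 100 minutes later, with 2.5 µg of TPA. RGRN-305 mice received the same dose of inhibitor followed by the acetone solvent alone. The other 14 mice had acetone in place of the inhibitor, followed by TPA (10 mice, TPA) or by acetone (4 mice, Vehicle), and they serve here only to show the TPA effect without the inhibitor. All animals were female C57BL/6J mice aged 6 to 8 weeks, and each library came from a punch biopsy of 1 ear taken 4 hours after TPA or solvent. The mice came from 2 independent experiments, and the sources used here do not say which animal belonged to which.

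TPA binds and activates protein kinase C, and in skin the signal runs through the MAP kinase cascades to the AP-1 transcription factors and through the IκB kinases to NF-κB, which switch on cytokine, chemokine and growth factor genes within hours. HSP90 is an abundant chaperone that keeps many of the kinases in these cascades folded and active. When HSP90 is blocked, its client kinases lose activity, and the heat shock factor HSF1, which HSP90 holds in check, can be released to induce other chaperones. A whole ear biopsy holds epidermis, dermis, cartilage, muscle, vessels and immune cells, so fewer cells of a type and less RNA per cell cannot be told apart in any value below.

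The libraries held between 17435116 and 23619586 gene counts over the 14 mice, and 18991 genes had enough counts to be tested. Some libraries stood apart within their groups. In 8 libraries, TPA+RGRN-305 1, 5, 6, 7, 8, 9 and 10 and TPA 1, the transcript Gm11940, which lies antisense to the keratin gene Krt10, had 30.1 to 47.9 normalized counts, against 194 to 416 in the other 20 libraries. No RGRN-305 or Vehicle library was among them. With a term for this split in the model 46 genes differed between these 8 libraries and the rest, 44 of them lower in the 8, and 40 of the 45 with an annotation (88.9%) overlap a gene on the opposite strand, against 50.9% of all genes tested. More than 100 normalized counts of Krt71, a keratin of growing hair follicles, were found in 7 libraries, TPA+RGRN-305 1, 2, 6 and 9, RGRN-305 3 and 4 and TPA 3. TPA+RGRN-305 6, labelled female, had 10.7 normalized counts of Xist, against 7897 to 14817 in the other 27 libraries. The part of these features in the results was not tested. Values computed without the libraries concerned stand beside the main results, and the named genes that lost their call in these settings are listed at the end. Without the hair follicle libraries 6 TPA+RGRN-305 and 2 RGRN-305 mice remained, and without those low in Gm11940 3 and 4. With fewer mice a call can be lost although the estimate is similar.

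With the inhibitor present, TPA still raised a set of inflammatory, immediate early and wound genes. A gene counted as differentially expressed (DEG) when its adjusted p was below 0.05, its log2 fold change exceeded 1 in size and its normalized counts averaged more than 50 over all libraries. Those libraries include the TPA ears. Csf3, Il19, Trem1 and Retnlg, with means of 2.93, 18.5, 12.2 and 8.70 in TPA+RGRN-305 ears, were among the genes that met the count limit through the TPA ears. By this rule 154 genes were higher (0.811% of the genes tested) and 9 were lower (0.0474%) in TPA+RGRN-305 than in RGRN-305 ears by edgeR's quasi-likelihood test with Benjamini-Hochberg adjustment, which gives every adjusted p below. Of the 154, 144 are protein-coding, and for 111 the lowest TPA+RGRN-305 value lay above the highest RGRN-305 value, as it did for 3.53% of all genes tested. Among the 9 lower genes 3 did not overlap between the groups, against 1.7% of all genes. By the same rule without its count limit, 233 genes were higher and 71 lower. By the adjusted p alone 1656 genes were higher (8.72%) and 1012 lower (5.33%), while the median over all genes was -0.0015 on the log2 scale. Both shares are the background for the counts of list members with the inhibitor below.

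The same challenge without the inhibitor changed many more genes. Between TPA and Vehicle ears, which share no library with the main comparison, 1445 genes were higher (7.61%) and 1014 lower (5.34%) under the same limits, and 66% of all genes passed the adjusted p. Of the 1445 raised genes, 756 (52.3%) also passed the adjusted p in the same direction with the inhibitor and 688 did not pass. The exception was Ikzf4, a lymphoid zinc finger factor, with a log2 fold change of -0.50 in TPA+RGRN-305 versus RGRN-305 (adjusted p = 0.00641) and 1.15 in TPA versus Vehicle. This call was lost with the Gm11940 split as a term (adjusted p = 0.056), without the libraries low in Gm11940 (adjusted p = 0.0665), without the libraries with hair follicle transcripts (adjusted p = 0.227) and without RGRN-305 3 (-0.30, adjusted p = 0.123). The median log2 fold change of the 1445 genes was 0.35 with the inhibitor and 1.56 without it. For a single gene, the fold change with the inhibitor was a median of 21.4% of that without it on the log2 scale (interquartile range 13.6% to 31.1%). Of the 1014 lowered genes, 293 (28.9%) passed in the same direction, 719 did not pass and 2 passed the opposite way, Efcc1 (log2 fold change 0.55 with and -1.20 without the inhibitor) and Iffo1 (0.43 with and -1.21 without). Neither passed with the split as a term (adjusted p = 0.175 for Efcc1 and 0.217 for Iffo1) or without the libraries low in Gm11940 (adjusted p = 0.279 and 0.434), and Efcc1 lost its call in 7 of 14 fits that each left out 1 mouse. The lowered genes had a median log2 fold change of -0.23 with and -1.32 without the inhibitor, and the gene-wise median share was 16.5% (7.08% to 25%). The shares of raised and lowered genes divide by the estimate on which the genes were chosen, which favours low shares.

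The interaction term, which tests the TPA effect with the inhibitor against that without it, was past the adjusted p towards a smaller effect for 1393 of the 1445 raised and 1001 of the 1014 lowered genes. It was past it towards a larger effect for none of either set, and 52 and 13 genes did not pass. Both sets were chosen on the TPA versus Vehicle estimate that the interaction subtracts, which favours a smaller effect with the inhibitor. Over all genes the interaction passed for 4909 genes in the positive direction (25.8%) and 4742 in the negative direction (25%), 50.8% together, and under the DEG limits for 3.97% and 5.49%. The 25.8% and 25% are the background for the interaction counts of list members below. For list counts in TPA versus Vehicle the background is 31.6% of all genes higher and 34.4% lower. Conversely, 152 of the 154 genes raised with the inhibitor were also raised DEGs without it, which is 98.7% of the 154 and 10.5% of the 1445. Raised DEGs without it were 7.61% of all genes tested. A gene low in both groups compared could enter the 154 only through counts in the other ears, so this overlap is partly fixed by the rule. All 154 passed the adjusted p in TPA versus Vehicle in the same direction, against 31.6% of all genes. The interaction was negative and past the adjusted p for 132 of them and did not pass for 22. The effect with the inhibitor is measured from RGRN-305 ears and that without it from Vehicle ears. Between RGRN-305 and Vehicle ears no gene passed the adjusted p (smallest 0.273), and 1810 of 18991 had an unadjusted p under 0.05. The authors reported Fosl1 and Epgn among the few genes changed by RGRN-305 alone. What a difference in baseline adds to the interaction of a gene was not tested.

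**Figure D1:**
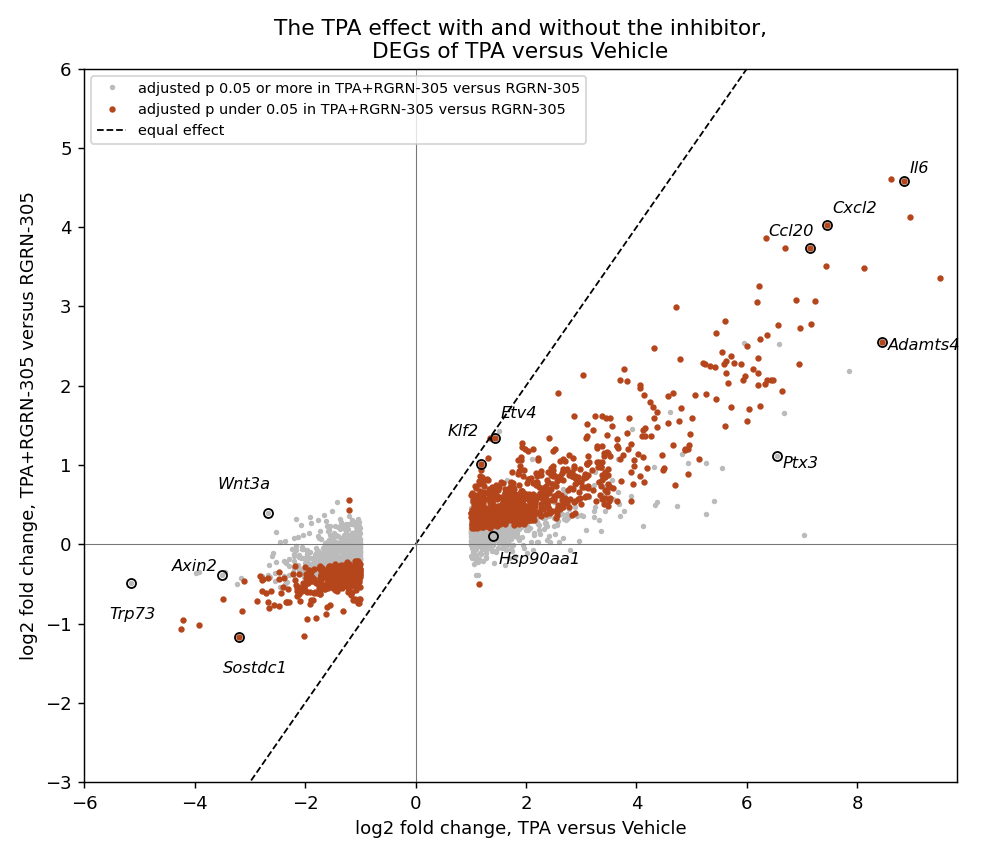
Log2 fold change of TPA+RGRN-305 versus RGRN-305 (vertical axis) against that of TPA versus Vehicle (horizontal axis), 1 point per DEG of TPA versus Vehicle. Most genes that TPA moved without the inhibitor lie close to the horizontal axis, and the 1445 raised genes have a median of 0.35 on the vertical and 1.56 on the horizontal axis.

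The residual response differed between mice. For each mouse, the mean log2 difference from the RGRN-305 group over the 1445 raised genes was expressed as a percent of the mean TPA minus Vehicle difference. It was 24% ± 8.43 in TPA+RGRN-305 mice (SD, n = 10), with a lowest value of 11.9% in mouse 9 and a highest of 42.8% in mouse 10, and it was 2.45%, 3.85%, -7.09% and 0.780% in RGRN-305 mice 1 to 4, whose mean is 0 by construction. No TPA+RGRN-305 mouse reached down to the RGRN-305 values. The genes were chosen on the TPA minus Vehicle difference, which favours a low percent. Over the 1014 lowered genes the share was 15.3% ± 8.02 in TPA+RGRN-305 mice, again lowest in mouse 9 (3.09%) and highest in mouse 10 (29.6%), and 10.7%, -3.20%, -3.60% and -3.94% in RGRN-305 mice. Here the groups overlapped, since RGRN-305 1 lay above the values of mice 1, 6 and 9 (8.88%, 8.39% and 3.09%). Mouse 10 was the highest of the 10 for 129 of the 154 raised DEGs, mouse 9 the lowest for 68, mouse 3 for 32 and mouse 6 for 24. The mean log2 difference from the RGRN-305 group over these 154 genes was 2.57 in mouse 10 and 1.04 in mouse 9. Both mice belong to the libraries low in Gm11940.

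**Figure D2:**
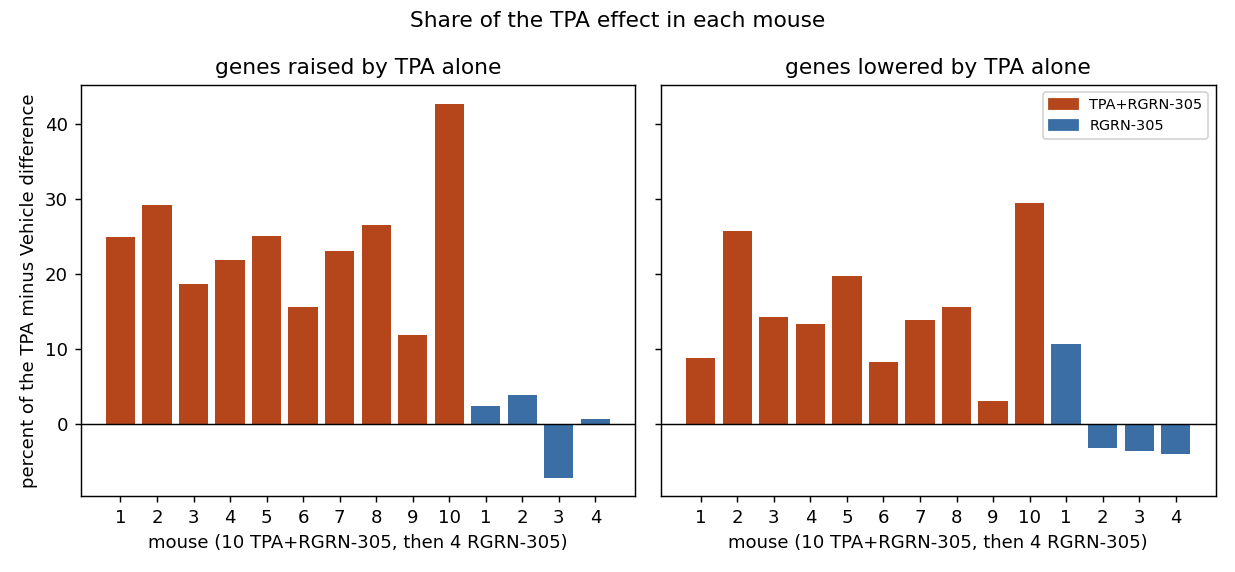
Mean log2 difference from the RGRN-305 group in each mouse as a percent of the mean TPA minus Vehicle difference, over genes that TPA raised (1445) or lowered (1014) without the inhibitor. For raised genes every TPA+RGRN-305 mouse, from 11.9% to 42.8%, lies above every RGRN-305 mouse, and for lowered genes the groups overlap.

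Most of the 10 largest non-overlapping increases were in secreted inflammatory mediators. Normalized counts are counts scaled to a common library size, and values of TPA+RGRN-305 mice are given as the lowest, the median and the highest of 10, against RGRN-305 mice 1 to 4 in order. Il6, the acute phase cytokine, had 21.1, 53.6 and 210.2 normalized counts in TPA+RGRN-305 ears, against 3.12, 2.99, 0.865 and 2.93 in RGRN-305 ears. The highest value was that of mouse 10 and no value overlapped, with a log2 fold change of 4.58 ± 0.75 (SE, adjusted p = 8.07e-05), and the RGRN-305 level rests on 10 counts over 4 libraries. Cxcl2, a chemokine that attracts neutrophils, had 60.6, 148 and 329.9 normalized counts against 15.6, 9.96, 0 and 16.6 in RGRN-305 ears (log2 fold change 4.03 ± 0.44, adjusted p = 4.02e-07). Ccl20, which attracts CCR6-bearing T cells and dendritic cells, had 773, 1736 and 3104 normalized counts in TPA+RGRN-305 ears against 239, 157, 16.4 and 146 in RGRN-305 ears (log2 fold change 3.74 ± 0.43, adjusted p = 6.66e-07). RGRN-305 3 was the lowest of its group for each of these genes, and the groups stayed apart in all of them.

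Cxcl1, the close relative of Cxcl2 and ligand of the same receptor, had 533, 1093 and 1907 normalized counts in TPA+RGRN-305 ears, against 134, 91.6, 22.5 and 112 in RGRN-305 ears (log2 fold change 3.74 ± 0.39, adjusted p = 1.33e-07). Il1b, which encodes the cytokine IL-1β, had 98.2, 263 and 858 against 73.8, 27.9, 4.33 and 36.1 (log2 fold change 3.07 ± 0.50, adjusted p = 7.49e-05). The lowest TPA+RGRN-305 value of Il1b, in mouse 9, was not far above the highest RGRN-305 value, in mouse 1. Il19, a cytokine of the IL-10 family, had 2.58, 14.7 and 62.3 against 2.08, 0.996, 1.73 and 0.975, with a log2 fold change of 3.51 ± 1.03 (adjusted p = 0.0202) that rests on 6 counts in RGRN-305 libraries and lost its call with the library split as a term (adjusted p = 0.0533) and without any 1 of the RGRN-305 libraries (adjusted p of Il19 between 0.0502 and 0.0571). Trem1, a receptor of neutrophils and monocytes that amplifies inflammation, was close to absent without TPA, with 3.30, 10.2 and 37.7 against 0, 0.996, 0 and 2.93 (log2 fold change 3.49 ± 0.79, adjusted p = 0.00299, 4 counts in RGRN-305 libraries).

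The remaining 3 of these 10 genes have other roles. Nppb, the precursor of brain natriuretic peptide, had 22.9, 70.9 and 149.9 normalized counts in TPA+RGRN-305 ears against 14.6, 4.98, 0 and 2.93 in RGRN-305 ears (log2 fold change 3.86 ± 0.52, adjusted p = 7.04e-06). Ch25h, which makes 25-hydroxycholesterol, had 81.9, 139.6 and 392 against 36.4, 11.9, 1.73 and 17.6 (log2 fold change 3.26 ± 0.45, adjusted p = 9.39e-06). Has1, a hyaluronan synthase, had 84.4, 140.4 and 798 against 30.2, 45.8, 9.52 and 24.4 (log2 fold change 3.08 ± 0.54, adjusted p = 0.000184), and its value in mouse 10 was far above the other 9, which lay at 324 or below. With the Gm11940 split as a term, 9 of these 10 genes passed the adjusted p, with a log2 fold change of 4.14 for Il6, 3.78 for Ccl20 and 2.60 for Il1b.

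**Figure D3:**
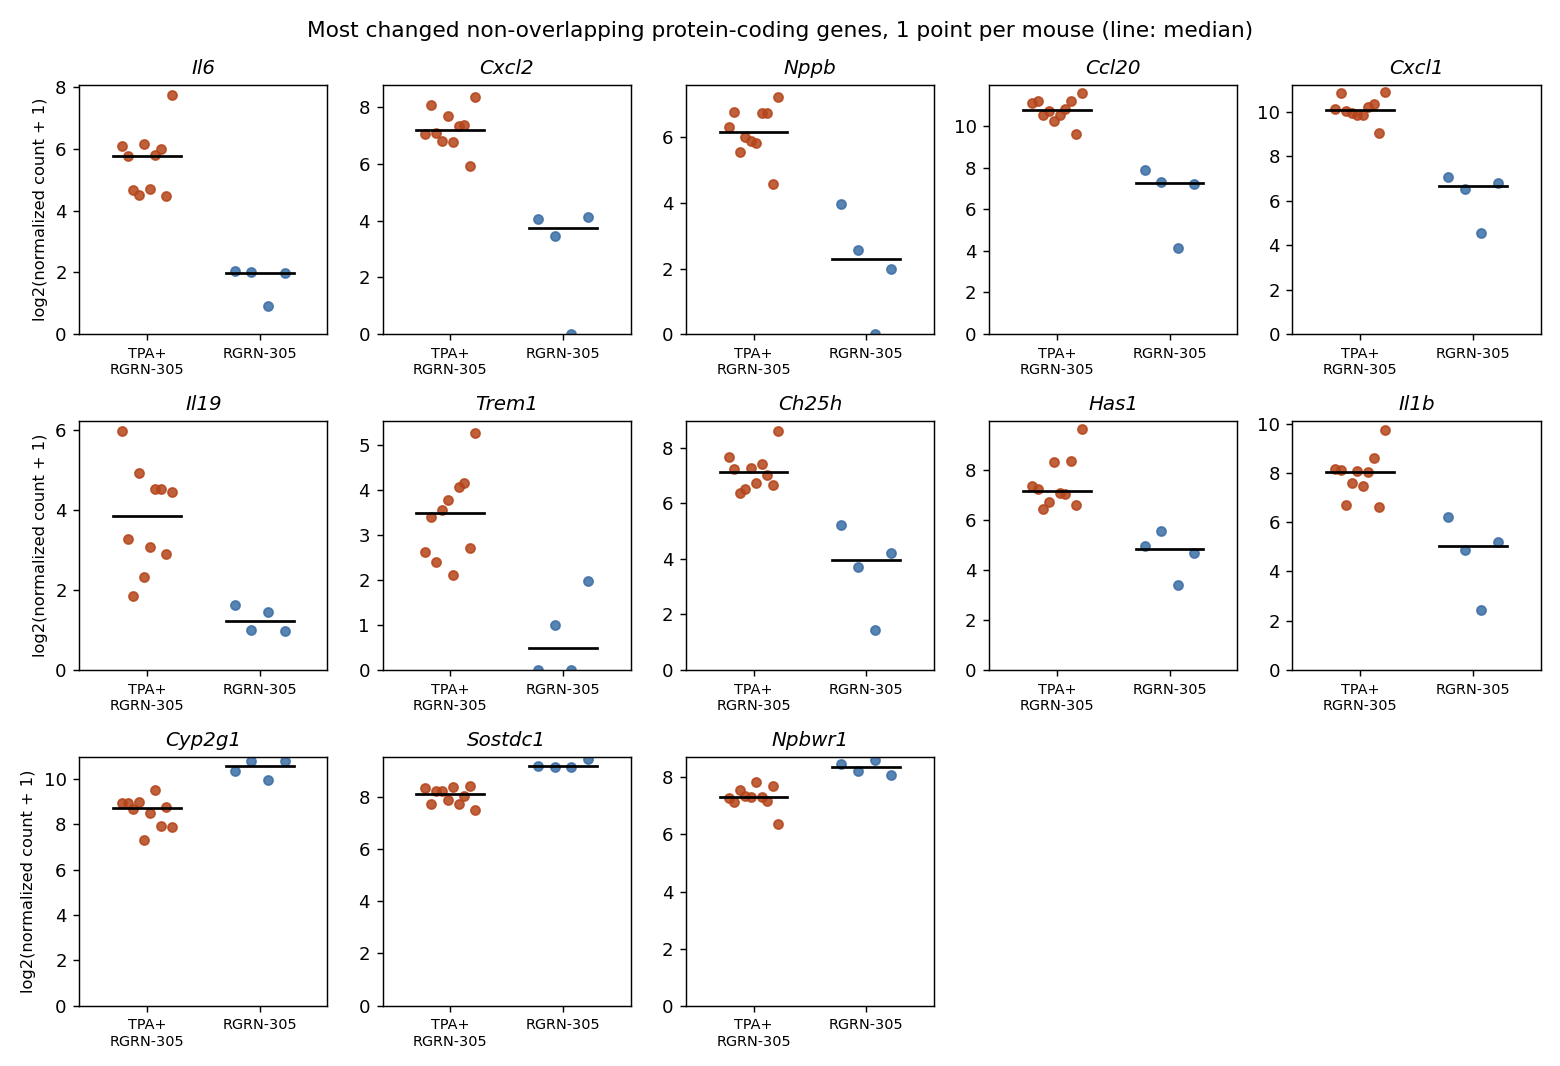
Normalized counts of the 10 protein-coding genes with the largest increase and the 3 with the largest decrease among DEGs whose groups do not overlap, as log2(normalized count + 1), with TPA+RGRN-305 mice to the left of RGRN-305 mice, 1 point per mouse. Ccl20 spans 773 to 3104 in TPA+RGRN-305 ears and 16.4 to 239 in RGRN-305 ears.

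Of these raised genes, 5 have a match to the NF-κB consensus near the start of the gene. The 250 bases before each RefSeq transcription start (build GRCm38.p6) were searched on both strands for the AP-1 heptamer TGACTCA, the CRE octamer TGACGTCA and the NF-κB consensus. All 10 raised genes had a window, and the 3 lowered genes Cyp2g1, Sostdc1 and Npbwr1 had no entry. An NF-κB match was found for 5 of the 10 genes, Il6, Cxcl2, Ccl20, Cxcl1 and Il19, against 7.25% of the 32851 promoter windows. The AP-1 heptamer was found for Il6 (4.46% of windows) and the CRE octamer for Ch25h and Has1 (1.55%), while Nppb, Trem1 and Il1b held none of the 3 in this window. In Cxcl1 and Cxcl2 the NF-κB consensus is met on both strands at positions 1 base apart, so that the 2 matches overlap, and the Il6 AP-1 match lies on the minus strand. No match to 1 motif overlapped a match to another. A match describes letters in the window and is not evidence of binding. The stretches that hold the matches are printed here because these 5 genes are among the largest increases, 5′ to 3′ on the gene's strand, with the matches in capitals: Il6 from chr5:30012864-30013113 (plus strand, the whole window, with the AP-1 match at -249 to -243 and the NF-κB match at -44 to -35), Cxcl2 from chr5:90903762-90903852 (plus strand, -97 to -87), Ccl20 from chr1:83116646-83116735 (plus strand, -80 to -71), Cxcl1 from chr5:90891134-90891224 (plus strand, -71 to -61) and Il19 from chr1:130940143-130940232 (minus strand, -77 to -68).
Il6: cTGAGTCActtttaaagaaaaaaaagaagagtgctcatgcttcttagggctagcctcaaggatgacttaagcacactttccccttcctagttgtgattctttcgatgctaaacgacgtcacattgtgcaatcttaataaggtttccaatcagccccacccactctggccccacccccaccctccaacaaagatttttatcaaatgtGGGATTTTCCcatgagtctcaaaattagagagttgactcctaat
Cxcl2: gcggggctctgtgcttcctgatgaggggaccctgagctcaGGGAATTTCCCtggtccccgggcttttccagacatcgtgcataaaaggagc
Ccl20: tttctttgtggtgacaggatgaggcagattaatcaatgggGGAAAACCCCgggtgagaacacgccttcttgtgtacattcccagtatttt
Cxcl1: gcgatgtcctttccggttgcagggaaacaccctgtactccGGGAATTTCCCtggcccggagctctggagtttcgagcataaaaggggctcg
Il19: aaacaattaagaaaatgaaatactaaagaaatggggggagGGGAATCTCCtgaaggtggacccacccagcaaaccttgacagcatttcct

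Part of the cytokine genes rose with the inhibitor. Of 32 listed inflammatory cytokines 28 were tested, and 14 were higher and 1 lower in TPA+RGRN-305 than in RGRN-305 ears, against 8.72% and 5.33% of all genes. The median log2 fold change was 1.07 for the list and -0.0015 for all genes, and in TPA versus Vehicle it was 2.40, with 26 higher (31.6% of all genes) and 1 lower (34.4%). Osm, oncostatin M of the IL-6 family, had 19.3, 27.8 and 130.1 normalized counts against 7.28, 2.99, 5.19 and 8.78 (log2 fold change 2.67 ± 0.52, adjusted p = 0.000621), and mouse 10 was again far above the rest. Tnf, the tumour necrosis factor gene, had 92.7, 163 and 223 in TPA+RGRN-305 ears against 77, 66.7, 55.4 and 103 in RGRN-305 ears (log2 fold change 1.06 ± 0.24, adjusted p = 0.00324), where mouse 9 overlapped the RGRN-305 values. Csf3, the neutrophil growth factor G-CSF, had a normalized count of 0 to 9.43 in TPA+RGRN-305 libraries and no count in RGRN-305 libraries. It was also absent from 3 of the 10 TPA+RGRN-305 libraries, and its adjusted p of 0.0247 was 0.0534 with the split as a term. The list median is unchanged when Csf3 is set at a bound based on 3 counts over the RGRN-305 group. Il24 (log2 fold change 2.53 ± 1.26, adjusted p = 0.184) and Il18 (-0.21 ± 0.10, adjusted p = 0.15) did not pass, and Il36b, an epidermal member of the IL-1 family, was the gene that fell (-0.43 ± 0.12, adjusted p = 0.0102). The count of 14 was 8 with the split as a term and 8 without the libraries that held hair follicle transcripts.

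Chemokines were divided. Of 32 listed, 30 were tested, and 11 were higher and none lower with the inhibitor, with a median log2 fold change of 0.50, against 24 higher, 2 lower and a median of 2.62 in TPA versus Vehicle. Besides Ccl20, Cxcl1 and Cxcl2 the increases included Ccl2, which attracts monocytes, with 298, 518 and 1256 normalized counts against 211, 68.7, 68.4 and 125 (log2 fold change 2.32 ± 0.37, adjusted p = 5.87e-05). The lowest Ccl2 value lay above the highest RGRN-305 value. Cxcl3 had 1.84 to 9.46 normalized counts in TPA+RGRN-305 libraries and no count in any RGRN-305 library (adjusted p = 0.00177), so that its fitted fold change is not a measurement of size. The interaction was past the adjusted p and negative for 17 of the 30 chemokines and for 17 of the 28 cytokines.

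**Figure D4:**
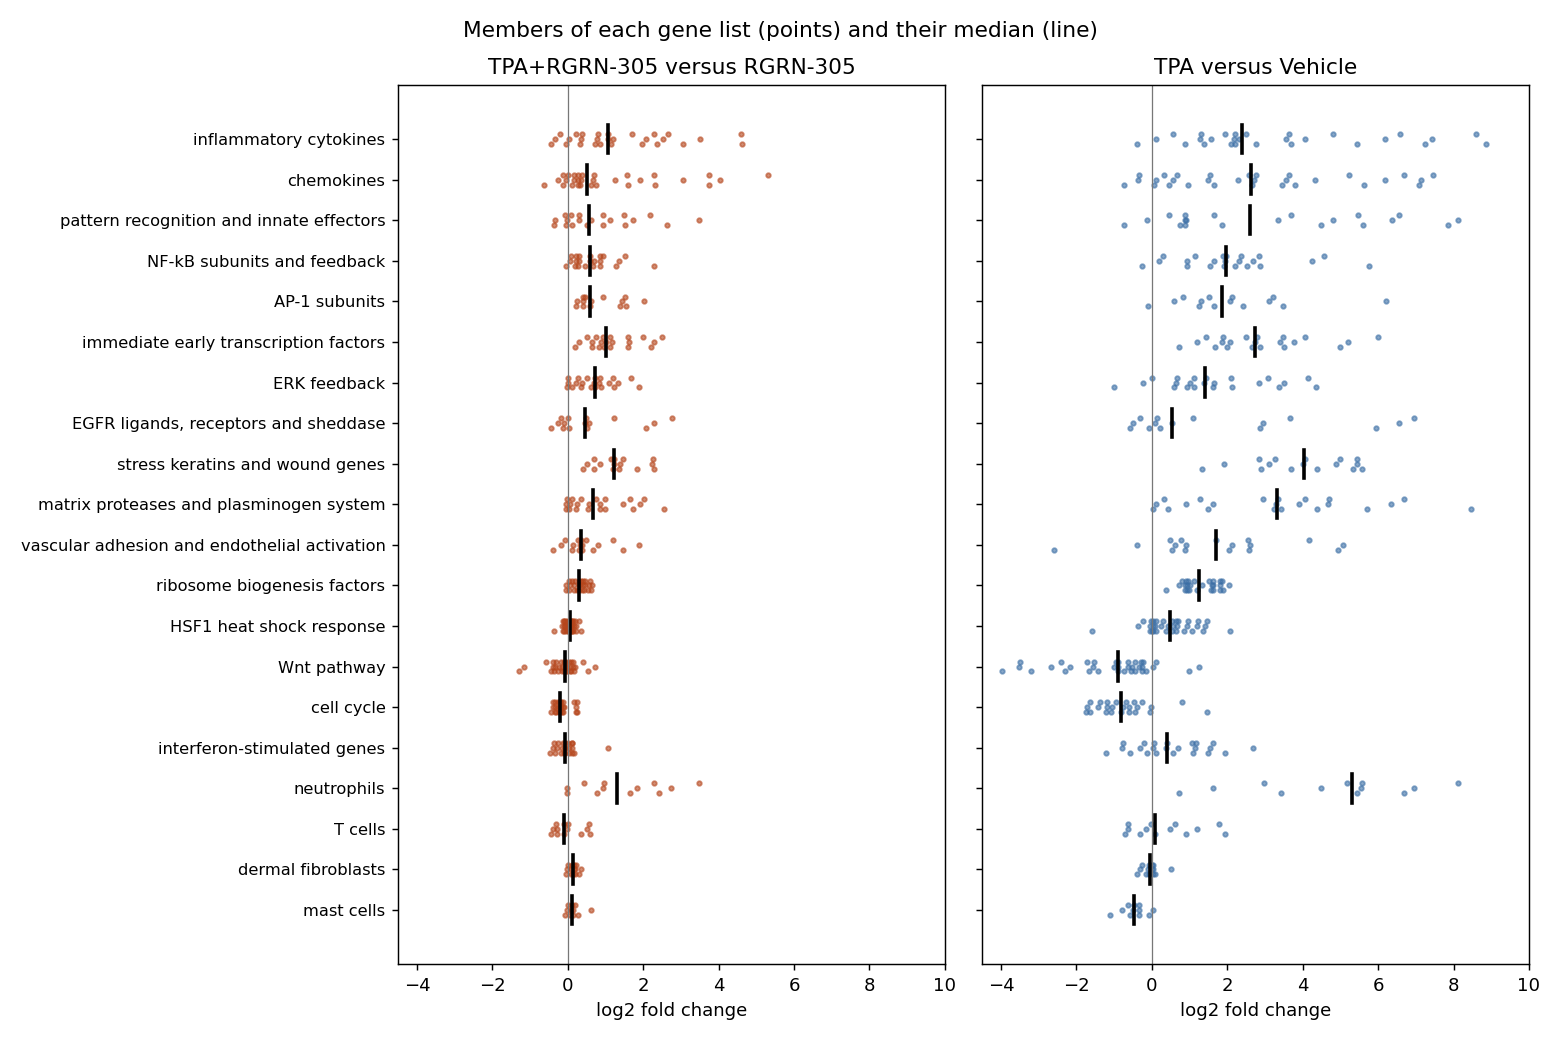
Log2 fold changes of the members of 20 gene lists, with TPA+RGRN-305 versus RGRN-305 on the left and TPA versus Vehicle on the right, 1 point per gene tested. The median of the immediate early list is 1.01 on the left and 2.73 on the right, and that of the heat shock list 0.05 and 0.47.

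Nearly every immediate early gene rose. These genes are transcribed within minutes of a signal from existing factors. Of 21 immediate early transcription factor genes and relatives, 19 were higher and none lower with the inhibitor (median log2 fold change 1.01), and all 21 were higher without it (median 2.73). Ier3, an early response gene induced by NF-κB and growth factors, had 1469, 1936 and 2800.4 normalized counts against 706, 719.8, 523 and 650.4 (log2 fold change 1.62 ± 0.12, adjusted p = 1.05e-10). Its lowest TPA+RGRN-305 value was well above the highest RGRN-305 value. Arc, an activity-regulated early gene best known from neurons, had 805, 1129 and 2655 against 316, 413, 89.1 and 301 (log2 fold change 2.28 ± 0.32, adjusted p = 1.26e-05). Nr4a1, an orphan nuclear receptor, had 2887, 6152 and 12782 against 2492, 1615, 622 and 961 (log2 fold change 2.21 ± 0.42, adjusted p = 0.000526). Mice 10, 8, 5 and 9 were the highest for Nr4a1, all of them libraries low in Gm11940, and with the split as a term the log2 fold change was 1.77 (adjusted p = 0.0126). Egr4 had a log2 fold change of 2.51 ± 0.42 (adjusted p = 0.000107), Egr2 of 1.13 ± 0.11 (adjusted p = 6.82e-08) and Egr3 of 0.63 ± 0.11 (adjusted p = 0.000108), all zinc finger factors of the EGR family. The count of 19 was 19 with the split as a term and 17 without the libraries with hair follicle transcripts.

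AP-1 is formed by dimers of FOS and JUN proteins, and 10 of its 14 listed subunits and partners were higher with the inhibitor and none lower (median log2 fold change 0.60, against 1.86 without it). Fosl1, the FOS relative FRA-1, had 1054, 1746 and 4002 normalized counts against 549, 926, 155 and 399 (log2 fold change 2.01 ± 0.35, adjusted p = 0.000177), against 6.21 in TPA versus Vehicle. RGRN-305 mice differed widely among themselves in this gene, with mouse 3 lowest and mouse 2 highest, and the groups did not overlap. Junb had 8619, 10126 and 19194 against 4126, 4683, 2833 and 4217 (log2 fold change 1.52 ± 0.21, adjusted p = 1.01e-05), and every TPA+RGRN-305 value lay above every RGRN-305 value. Jun rose by less, with a log2 fold change of 0.58 ± 0.12 (adjusted p = 0.00183), and lost its call with the split as a term (0.41, adjusted p = 0.0667). Fos ranged from 535.6 to 5847 in TPA+RGRN-305 ears and 722 to 1792 in RGRN-305 ears, and its log2 fold change of 1.53 ± 0.63 did not pass (adjusted p = 0.104). The number of members that passed was 6 with the split as a term and 5 without the libraries low in Gm11940.

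NF-κB subunits and the inhibitors that NF-κB induces against itself rose in most cases. Of 22 genes, 16 were higher and none lower with the inhibitor (median log2 fold change 0.58), against 20 higher and 1 lower without it (median 1.95). Bcl3, an atypical IκB protein, had 279, 766 and 1775 normalized counts against 189, 247, 71 and 162 (log2 fold change 2.29 ± 0.33, adjusted p = 2.11e-05). Tnfaip3, which encodes the ubiquitin-editing enzyme A20, had 1305, 1895 and 3472 against 759, 956, 443 and 726 (log2 fold change 1.53 ± 0.21, adjusted p = 1.14e-05). Neither gene overlapped between the groups. Nfkbiz, an atypical IκB (log2 fold change 0.93 ± 0.13, adjusted p = 7.24e-06), Relb, an NF-κB subunit (0.67 ± 0.10, adjusted p = 5.09e-05), and Nfkbia, the gene of IκBα (0.69 ± 0.16, adjusted p = 0.00393), rose by less than 1 on the log2 scale. In TPA versus Vehicle these 3 genes had log2 fold changes of 2.67, 1.90 and 2.36. The interaction was negative and past the adjusted p for 18 of the 22 genes.

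Feedback regulators of the ERK pathway also rose. Of 22 genes, which include the phosphatases, Sprouty and Spred proteins and ETV factors that ERK signalling induces, 16 were higher and none lower with the inhibitor, with a median log2 fold change of 0.72 against 1.41 without it. Dusp6, the phosphatase of ERK, had 2584, 3009 and 5580.0 normalized counts against 1157, 1044, 589 and 789 (log2 fold change 1.89 ± 0.19, adjusted p = 1.33e-07). Phlda1, a pleckstrin homology domain protein, had 816, 1533 and 3127 against 529, 581, 338 and 559 (log2 fold change 1.67 ± 0.21, adjusted p = 3.34e-06). The groups were separate in both genes. Spry4 (1.09 ± 0.13, adjusted p = 8.14e-07) and Dusp5 (0.89 ± 0.13, adjusted p = 1.30e-05) also rose, whereas Spred3 did not pass (0.27 ± 0.20, adjusted p = 0.424) and its estimate was -0.02 without RGRN-305 1. Etv4, an ETS factor downstream of ERK, had 407, 491 and 683 normalized counts in TPA+RGRN-305 ears against 173, 228, 199.9 and 195 in RGRN-305 ears (log2 fold change 1.34 ± 0.14, adjusted p = 1.33e-07), and in TPA versus Vehicle the log2 fold change was 1.44 ± 0.14. The interaction of -0.09 ± 0.19 did not pass (adjusted p = 0.71), while it was negative and past the adjusted p for 13 of the 22 genes and positive for 2. The count of 16 was 10 without the libraries low in Gm11940.

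Ligands of the EGF receptor, which keratinocytes release in response to phorbol ester, were among the genes that rose. Of the 15 listed ligands, receptors and shedding factors 7 were higher and 1 lower with the inhibitor (median log2 fold change 0.47, against 0.53 without it). Areg, amphiregulin, had 66.1, 119 and 349 normalized counts against 28.1, 30.9, 8.65 and 19.5 (log2 fold change 2.77 ± 0.42, adjusted p = 3.75e-05). Epgn, epigen, had 127, 321 and 667 against 86.3, 125, 23.4 and 76.1 (log2 fold change 2.28 ± 0.35, adjusted p = 4.03e-05). Hbegf, the heparin-binding ligand, had 955, 1458 and 3476 against 443, 586, 210.3 and 371 (log2 fold change 2.07 ± 0.26, adjusted p = 3.34e-06). All 3 ligands were separate between the groups, and in TPA versus Vehicle their log2 fold changes were 6.56, 6.95 and 5.93. Ereg, epiregulin, was already at 2138 to 4662 normalized counts in RGRN-305 ears and did not pass (0.47 ± 0.17, adjusted p = 0.0607), although it did with the split as a term (0.62, adjusted p = 0.0456). Erbb3, a receptor of neuregulins, was the member that fell (-0.27 ± 0.07, adjusted p = 0.00961). Rhbdf1, an inactive rhomboid that serves the sheddase ADAM17, rose by 0.47 ± 0.07 with and 0.21 ± 0.07 without the inhibitor, and the interaction passed in the positive direction (adjusted p = 0.0313).

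Of 34 genes of the HSF1 heat shock response 3 were higher, Dnajb1, Bag3 and Hsf1 itself, and 1 was lower, Hsf2, beside 8.72% and 5.33% of all genes (medians 0.05 with and 0.47 without the inhibitor, where 22 were higher and 3 lower). Hsp90aa1, the stress-inducible HSP90 gene, had 1123, 1283 and 1713 normalized counts in TPA+RGRN-305 ears against 1537, 1260.5, 1029.7 and 1058 in RGRN-305 ears. The ranges overlapped and the log2 fold change of 0.10 ± 0.09 did not pass (adjusted p = 0.514), against 1.40 ± 0.10 in TPA versus Vehicle, and the interaction of -1.30 passed (adjusted p = 9.14e-10). Without the libraries with hair follicle transcripts the estimate was -0.08 (adjusted p = 0.707). Hspa8, the constitutive HSP70, likewise had 5619.9, 6689 and 8371 against 7496, 6025, 5688 and 6283 (log2 fold change 0.09 ± 0.08, adjusted p = 0.551), against 1.35 ± 0.09 without the inhibitor. Hsp90ab1, the constitutive HSP90 gene, had a log2 fold change of -0.12 ± 0.05 (adjusted p = 0.124). Dnajb1, a co-chaperone of HSP70, had 2471, 2828 and 3851 against 2729.8, 2395, 2128 and 2146 (log2 fold change 0.31 ± 0.09, adjusted p = 0.0215), against 2.07 ± 0.10 without the inhibitor. Bag3, a further HSP70 partner, rose by 0.23 ± 0.06 (adjusted p = 0.0135), Hsf1 by 0.36 ± 0.07 (adjusted p = 0.000307), and Hsf2 fell by 0.36 on the log2 scale (adjusted p = 0.00842). The count of 3 was 1 without the libraries low in Gm11940 and 2 without those with hair follicle transcripts. The calls of Dnajb1 and Bag3 were lost without RGRN-305 3 (adjusted p = 0.0937 and 0.0715) and without RGRN-305 4 (adjusted p = 0.0901 and 0.073).

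Wound genes of keratinocytes rose in most cases. Of 16 stress keratin and wound genes tested 13 were higher and none lower (median log2 fold change 1.23, against 4.03 without the inhibitor). Krt6a, a keratin of activated epidermis, had 2742, 3678 and 5327 normalized counts against 1361, 1591, 1517 and 1382 (log2 fold change 1.36 ± 0.14, adjusted p = 1.33e-07), and the groups did not overlap. Krt16, its partner, had 1647, 3487 and 6627 against 1461, 1766, 803 and 1464 (log2 fold change 1.39 ± 0.27, adjusted p = 0.000793), and mouse 9 lay below RGRN-305 2. Krt17 had a log2 fold change of 1.23 ± 0.15 (adjusted p = 1.58e-06) and Krt6b of 1.24 ± 0.26 (adjusted p = 0.00174). Krt6a and Krt6b are near copies, as are the Sprr2 genes below, and reads that fit more than 1 copy were not counted. Slpi, a secreted inhibitor of neutrophil elastase, had 356, 624 and 1239 against 137, 176, 101 and 121 (log2 fold change 2.25 ± 0.26, adjusted p = 9.06e-07). The interaction was negative and past the adjusted p for all 16 genes. Among 25 genes of epidermal differentiation and the cornified envelope 7 were higher and 5 lower (median -0.04, against 0.58 without the inhibitor), and the higher ones included Sprr2h (1.71 ± 0.33, adjusted p = 0.000589) and Sprr2d (1.55 ± 0.34, adjusted p = 0.00238). The 5 lower ones were the envelope or barrier genes Flg2 (-0.37), Tgm3 (-0.28), Casp14 (-0.26), Dsg1a (-0.30) and Klk5 (-0.21). Ivl (0.32 ± 0.15, adjusted p = 0.144), Flg (-0.20 ± 0.12, adjusted p = 0.28) and Krt1 (0.27 ± 0.11, adjusted p = 0.0885), which mark the normal program, did not pass, and Krt1 did with the split as a term (0.47, adjusted p = 0.0077). With that term the 7 and 5 were 9 and 1, without the libraries with hair follicle transcripts 3 and 2, and the 7 were 4 without RGRN-305 3.

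Matrix proteases and the plasminogen system had 13 of 22 genes higher and none lower (median 0.66, against 3.33 without the inhibitor). Adamts4, an aggrecan-cleaving protease, had 52.6, 100 and 278 normalized counts against 13.5, 28.9, 13.8 and 18.5 (log2 fold change 2.55 ± 0.40, adjusted p = 4.67e-05). Its log2 fold change was 8.45 without the inhibitor, and the interaction was -5.91 (adjusted p = 1.22e-07). Plaur, the urokinase receptor, had 231, 323 and 586 against 133, 121, 100.4 and 139 (log2 fold change 1.48 ± 0.18, adjusted p = 1.83e-06). Mmp3, stromelysin 1, rose by 0.98 ± 0.25 (adjusted p = 0.00792), but lost its call without the libraries with hair follicle transcripts (0.73, adjusted p = 0.15). Mmp9 had a log2 fold change of -0.02 ± 0.14 (adjusted p = 0.954), with a sign that differed between settings, against 1.63 ± 0.15 without the inhibitor. The count of 13 was 9 with the split as a term, 5 without the libraries with hair follicle transcripts and 8 without RGRN-305 3.

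Part of the lipid mediator, polyamine and ribosome biogenesis genes rose. Of 16 prostaglandin genes 5 were higher and 1 lower, beside 8.72% and 5.33% of all genes. Ptgs2, the inducible cyclooxygenase, had 327, 687 and 1562 normalized counts against 241, 371, 64.9 and 249.6 and overlapped between the groups (log2 fold change 1.79 ± 0.40, adjusted p = 0.00295, and 0.0565 without the libraries with hair follicle transcripts). Ptges, a prostaglandin E synthase, rose by 0.61 ± 0.16 (adjusted p = 0.0104, and 0.056 without RGRN-305 3). The others were the prostacyclin receptor Ptgir (0.86), the phospholipase Pla2g4e (0.86) and the receptor Ptger4 (0.46), and the degrading enzyme Hpgd was lower (-0.40). Without the libraries with hair follicle transcripts 2 prostaglandin genes were higher and none lower, and without RGRN-305 3 the count of 5 was 3. In polyamine metabolism 5 of 15 genes were higher and 2 lower, beside the same shares of all genes. Odc1, ornithine decarboxylase and a classical marker of phorbol ester action, had 3052, 4127 and 6709 against 2843, 3083, 1908 and 2715 (log2 fold change 0.72 ± 0.15, adjusted p = 0.00159), against 3.51 without the inhibitor. Smox, spermine oxidase, had a log2 fold change of 1.07 ± 0.18 (adjusted p = 9.41e-05). The arginine transporter Slc7a1 (0.59), spermidine synthase Srm (0.52) and the acetyltransferase Sat1 (0.31) were also higher, and Arg2 (-0.45) and Oaz2 (-0.19) were lower. With the split as a term neither passed (adjusted p = 0.127 for Arg2 and 0.0584 for Oaz2), and Arg2 lost its call in 7 of 14 fits that each left out 1 mouse. Of 26 ribosome biogenesis factors 17 were higher and none lower with the inhibitor (median 0.31), and all 26 were higher without it (median 1.26) with a negative interaction past the adjusted p for each. Nop56, a box C/D snoRNP protein, rose by 0.65 ± 0.10 (adjusted p = 2.78e-05) and Rrs1, a ribosome assembly factor, by 0.62 ± 0.10 (adjusted p = 8.44e-05). The ribosome count was 16 with the split as a term and 9 without the libraries with hair follicle transcripts.

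Innate immune genes and neutrophil markers rose in part. Of 20 pattern recognition and innate effector genes 7 were higher and none lower (median 0.57, against 2.60 without the inhibitor). The count of 7 innate genes was 4 with the split as a term, 4 without the libraries low in Gm11940, 4 without those with hair follicle transcripts and 11 by DESeq2. Clec4e, the receptor Mincle, had 11.9, 24.5 and 79.2 normalized counts against 6.24, 2.99, 3.46 and 5.85 (log2 fold change 2.63 ± 0.51, adjusted p = 0.000646). The inflammasome gene Nlrp3 (1.49) and the peptidoglycan sensor Nod2 (1.72) were higher too. Ptx3, pentraxin 3, did not pass (1.12 ± 0.40, adjusted p = 0.0614) against 6.55 ± 0.39 without the inhibitor, nor did Acod1 (2.18 ± 0.97, adjusted p = 0.133), while DESeq2 called both (adjusted p = 0.0213 and 0.0275). Tlr2 rose by 0.92 ± 0.20 (adjusted p = 0.00183, and 0.0521 with the split as a term). Of 12 neutrophil markers tested, 7 were higher and none lower (median 1.30, against 5.32 without the inhibitor). Csf3r, the G-CSF receptor, had 46.8, 104 and 274 against 29.1, 20.9, 15.6 and 19.5 (log2 fold change 2.43 ± 0.38, adjusted p = 4.25e-05) with no overlap. Cxcr2, a chemokine receptor of neutrophils, did not pass in the main fit. It did not pass with the split as a term (0.44, adjusted p = 0.306) or without the libraries with hair follicle transcripts (0.17, adjusted p = 0.687). S100a8 had 16.5, 49.6 and 162 against 20.8, 11, 2.60 and 18.5 (log2 fold change 2.28 ± 0.56, adjusted p = 0.00586) and S100a9, its partner in calprotectin, a log2 fold change of 1.83 ± 0.45 (adjusted p = 0.0053). Both overlapped between the groups, are also made by stressed keratinocytes, and did not pass with the split as a term (adjusted p = 0.0526 and 0.0666). The summed level of the 15 neutrophil markers was 116 to 191 CPM in TPA+RGRN-305 ears and 109 to 131 CPM in RGRN-305 ears, where Ngp had no count in TPA+RGRN-305 and Ly6g none in RGRN-305 libraries. The count of 7 neutrophil markers was 3 with the split as a term.

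Vascular adhesion molecules, which let leukocytes leave the blood, had 6 of 17 genes higher and none lower. Icam1 had 929.7, 1498 and 3077 normalized counts against 692, 694, 359 and 580.2 (log2 fold change 1.46 ± 0.23, adjusted p = 5.12e-05), and Sele, endothelial E-selectin, 93.6, 202 and 441 against 55.1, 55.8, 27.7 and 78 (log2 fold change 1.89 ± 0.31, adjusted p = 0.0001). The lowest TPA+RGRN-305 value was above the highest RGRN-305 value in both. Selp, P-selectin, rose by 1.20 ± 0.30 (adjusted p = 0.00642, and 0.0663 with the split as a term), and Vcam1 did not pass (0.34 ± 0.16, adjusted p = 0.168). The count was 4 with the split as a term. Among markers of resident cells, 7 of the lists, with 84 tested members (mast cells, dermal fibroblasts, anagen hair follicle, adipocytes, cartilage, melanocytes and red blood cells) had 0 genes past the adjusted p, 7 at an unadjusted p under 0.05 and 3 past the adjusted p of DESeq2, against 14% of all genes past the adjusted p. Of the other resident cell lists, Langerhans and dendritic cell markers had 2 of 13 higher, endothelial, Schwann and skeletal muscle markers 1 higher each, and sebaceous gland and suprabasal keratinocyte markers 1 lower each. The higher gene of the Schwann list was Egr2, which is also the immediate early gene given above. Of 15 macrophage and monocyte markers 3 were higher and none lower (median 0.12). Among the 3 were Cd68 (0.24 ± 0.08) and Cd14 (0.62 ± 0.16), and neither passed with the split as a term. The count of 3 was 0 with the split as a term, without the libraries low in Gm11940 and without those with hair follicle transcripts. T cell markers had 3 of 13 lower and none higher, the CD3 complex genes Cd3e (-0.30 ± 0.10, adjusted p = 0.041), Cd3g (-0.28 ± 0.09, adjusted p = 0.0302) and Cd247 (-0.32 ± 0.10, adjusted p = 0.0224). The summed level of the 13 T cell markers was 54.9 to 63.2 CPM in TPA+RGRN-305 and 64.8 to 79.4 CPM in RGRN-305 ears. In Vehicle ears it was 60.4 to 62.1 CPM and in TPA ears 57.2 to 71.2 CPM. None of the 3 CD3 complex genes passed with the split as a term or without RGRN-305 3 (adjusted p = 0.144, 0.0813 and 0.0985).

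Most Wnt pathway genes were lowered by TPA without the inhibitor. Of 35 tested, 5 were lower and 2 higher with the inhibitor, beside 5.33% and 8.72% of all genes (median log2 fold change -0.07), against 29 lower and 3 higher without it (median -0.89), and the interaction was positive and past the adjusted p for 26 and negative for 3. Sostdc1, a secreted Wnt and BMP antagonist, had 177, 275 and 336 normalized counts in TPA+RGRN-305 ears, against 580.3, 565, 566 and 688 in RGRN-305 ears (log2 fold change -1.17 ± 0.12, adjusted p = 1.33e-07). No TPA+RGRN-305 value reached the RGRN-305 range. Wnt16, a Wnt ligand, fell by 1.28 on the log2 scale (SE 0.22, adjusted p = 0.000116) at 12.3 to 38.6 normalized counts against 54.1 to 71, below the mean count required of a DEG. The other lower members were Fzd10, a Wnt receptor (-0.45 ± 0.11, adjusted p = 0.0059), Lgr4, an R-spondin receptor (-0.38 ± 0.08, adjusted p = 0.000916), and Wnt10b (-0.33 ± 0.11, adjusted p = 0.0383, and 0.137 with the split as a term). The higher ones were the ligand Wnt10a (0.73 ± 0.11, adjusted p = 2.13e-05) and the transcription factor Tcf7 (0.54 ± 0.09, adjusted p = 9.40e-05), which were also higher without the inhibitor (1.24 and 0.97).

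Axin2, the usual readout of Wnt signalling, had 703, 1094 and 1345 normalized counts against 1027, 1448, 1623 and 1549.5, and its log2 fold change of -0.38 ± 0.14 narrowly did not pass (adjusted p = 0.0555), though it did without RGRN-305 1 (-0.51, adjusted p = 0.0188) and without TPA+RGRN-305 3, 4, 6 or 9 (adjusted p of Axin2 between 0.0342 and 0.0493). Without the inhibitor Axin2 had a log2 fold change of -3.51 ± 0.14. Wnt3a had a log2 fold change of 0.40 ± 0.16 (adjusted p = 0.0951) against -2.68 ± 0.18 without the inhibitor, and Trp73, a member of the p53 family, -0.49 ± 0.22 (adjusted p = 0.134) against -5.15 ± 0.28. Trp73 overlapped between the groups, and with the split as a term it passed (-0.87, adjusted p = 0.0337). Lef1 did not pass (-0.11 ± 0.19, adjusted p = 0.766). In the cell cycle list 3 of 25 genes were lower, Mki67 (-0.38 ± 0.12), Top2a (-0.35 ± 0.11) and the cyclin-dependent kinase inhibitor Cdkn1b (-0.45 ± 0.09), and 1 was higher, Ccnd1 (0.24 ± 0.07). Of all genes 5.33% were lower and 8.72% higher. Without the inhibitor 20 of the list were lower and 2 higher, beside 34.4% and 31.6% of all genes. With the split as a term 1 cell cycle gene was lower. The Ccnd1 call was lost with that term (adjusted p = 0.0616), without the libraries low in Gm11940 (adjusted p = 0.0825), without those with hair follicle transcripts (0.07, adjusted p = 0.707) and without RGRN-305 3 or 4 (adjusted p = 0.115 each). Cdkn1b had 1129, 1365 and 1543 normalized counts against 1708, 1838, 1942 and 1947 (adjusted p = 0.000797) with no overlap between the groups.

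Among the 9 lower DEGs, 5 also passed the adjusted p with the library split as a term. Cyp2g1, a cytochrome P450, had 156, 422 and 719 normalized counts in TPA+RGRN-305 ears, against 1289, 1754, 989.9 and 1790.4 in RGRN-305 ears (log2 fold change -1.85 ± 0.37, adjusted p = 0.000847). The groups did not overlap. In TPA versus Vehicle the gene had a log2 fold change of 0.62 ± 0.40 that did not pass (adjusted p = 0.181), with 424 to 2232 normalized counts in TPA ears and 345 to 1368 in Vehicle ears, and the interaction of -2.47 ± 0.56 passed (adjusted p = 0.000465). Npbwr1, a neuropeptide receptor, had 81.1, 157 and 227 against 349, 301, 390.3 and 272 (log2 fold change -1.02 ± 0.14, adjusted p = 1.00e-05), against -3.93 without the inhibitor. Trpv6, an epithelial calcium channel, had 32, 46.7 and 77.1 against 69.7, 114, 104 and 116 (log2 fold change -1.07 ± 0.17, adjusted p = 6.58e-05), and mouse 9 overlapped RGRN-305 1. Oxtr, the oxytocin receptor, had 53.8, 66.7 and 118 against 132, 143, 261 and 111 (log2 fold change -1.15 ± 0.26, adjusted p = 0.00336) and lost its call without RGRN-305 3, the highest of its group (-0.81, adjusted p = 0.0622). Sostdc1 is the fifth.

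The other 4 lower DEGs moved with the split between libraries. Gm11940, which defines the split, had 30.1, 40.4 and 349 normalized counts in TPA+RGRN-305 ears and 315, 271, 370.4 and 416 in RGRN-305 ears. Mice 2, 3 and 4, outside the low libraries, had 236, 349 and 299 normalized counts. With the split as a term the log2 fold change was -0.23 in place of -1.59. For Gm55161, antisense to Krt5, it was -0.04 in place of -1.34, for Syn3, a synapsin gene that overlaps Timp3 on the opposite strand, -0.18 in place of -1.18, and for Gm5148, which overlaps a Rps23 pseudogene, -0.31 in place of -1.16. None of the 4 passed with that term (adjusted p = 0.331, 0.902, 0.593 and 0.346). The mitochondrial gene mt-Nd6, the antisense neighbour of mt-Nd5, behaved alike, with -0.69 ± 0.18 (adjusted p = 0.00957) and -0.17 with the term (adjusted p = 0.512). For the comparison as a whole the term left 145 higher and 10 lower DEGs, of which 132 were among the 163 of the main fit, and 142 of the 163 passed the adjusted p with the same sign. Without the 8 libraries, which leaves 3 TPA+RGRN-305 and 4 RGRN-305 mice, there were 139 higher and 11 lower DEGs with 130 shared.

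**Figure D5:**
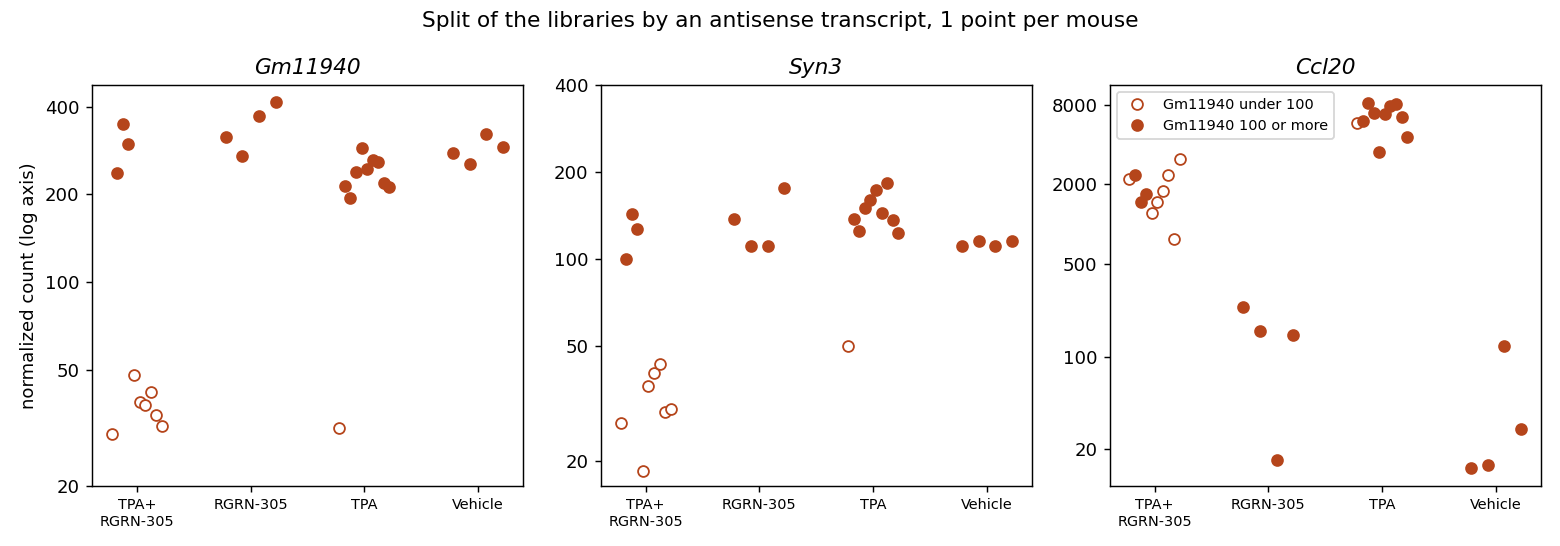
Normalized counts of Gm11940, Syn3 and Ccl20 in every library of the 4 groups (log axis), with open symbols for the 8 libraries below 100 normalized counts of Gm11940. Syn3 is low in the same libraries as Gm11940 within the TPA+RGRN-305 group, whereas the open and filled symbols of Ccl20 overlap (773 to 3104 and 1468 to 2374).

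Among protein-coding genes with a mean above 50 that passed both the main test and the interaction, the 5 most negative interactions were those of Adamts4 and of Ifi202b, an interferon-inducible gene (1.94 with against 6.64 without the inhibitor), Epgn (2.28 against 6.95), Trem1 (3.49 against 8.12) and Sprr2g, a cornified envelope gene (1.74 against 6.23). The 5 most positive were those of Mesp2, a bHLH factor (-0.96 against -4.22), Trpv6 (-1.07 against -4.26), Npbwr1, Art4, an ADP-ribosyltransferase (-0.69 against -3.50), and Palm3 (-0.47 against -3.10), all of which TPA lowered. Among protein-coding DEGs raised without the inhibitor that also passed with it, those with the least negative interaction on the log2 scale were, after Etv4, Klf2, a Krüppel-like factor of endothelium (1.01 ± 0.20 with against 1.19 ± 0.20 without, interaction adjusted p = 0.615), Aoc2 (0.94 ± 0.21 against 1.19 ± 0.21), Dnd1 (0.86 against 1.16), Tamalin (0.73 against 1.08), Prr7 (0.84 against 1.20), Qtrt1 (0.65 against 1.02), Rps10 (0.62 against 1.01), Tgfb1i1 (0.77 against 1.20) and Rgs12 (0.63 against 1.08). The interaction did not pass for Etv4, Klf2, Aoc2, Dnd1, Tamalin, Prr7 and Rps10, which does not show that their response was equal. Tgfb1i1, a focal adhesion adaptor, had 349, 429 and 522 normalized counts against 239, 304, 219 and 248 (adjusted p = 4.83e-07) and was separate between the groups. Cyp26a1, which degrades retinoic acid, had an estimate above that of TPA versus Vehicle (1.56 ± 0.31 with against 0.94 ± 0.29 without, interaction adjusted p = 0.22), and it was higher in all 10 TPA+RGRN-305 mice than in any RGRN-305 mouse.

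Basal keratinocyte markers moved in both directions, with 4 of 11 higher and 2 lower. The adhesion genes were higher, Itga3 (1.09 ± 0.11), Itgb4 (0.60 ± 0.09), Itga6 (0.29 ± 0.09) and Lamb3 (0.23 ± 0.08), and Krt15 (-0.41 ± 0.09), a keratin of stem-like basal cells, and Dst (-0.39 ± 0.10), a hemidesmosomal linker, were lower. Itga3 had 3589.6, 4293 and 5876 normalized counts in TPA+RGRN-305 ears, against 1715, 2681, 2168 and 1880.1 in RGRN-305 ears (adjusted p = 1.33e-07), with no overlap. Without the libraries with hair follicle transcripts 2 were higher and none lower, and the calls of Itga6, Lamb3 and Dst were lost without RGRN-305 3 (adjusted p = 0.0776, 0.0603 and 0.0557).

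Of 23 interferon-stimulated genes Irf1 (1.08 ± 0.19, adjusted p = 0.000188), a transcription factor induced by interferon and NF-κB, was higher and Ifit3 (-0.46 ± 0.16, adjusted p = 0.0444) lower. Without the inhibitor 11 were higher and 5 lower. Of all genes, 8.72% were higher and 5.33% lower with the inhibitor, and 31.6% and 34.4% without it. In the p53 list 9 of 20 genes were higher, led by the antiproliferative gene Btg2 (1.11 ± 0.23, adjusted p = 0.00115), and 4 were lower, Trp53inp1 (-0.75), Sesn1 (-0.72), Ccng1 (-0.30) and Perp (-0.22), with a median of 0.28. The counts were 9 and 2 with the split as a term, and 6 and 2 without the libraries low in Gm11940 or without those with hair follicle transcripts. In the TGF-β, activin and BMP list 9 of 24 were higher and 1 lower, the receptor gene Bmpr1a (-0.21), with a median of 0.14. The counts were 4 and 0 without the libraries low in Gm11940 and 3 and 0 without those with hair follicle transcripts. Fst, the activin antagonist follistatin, was the member with the largest change (1.22 ± 0.14, adjusted p = 8.26e-07), and Tgfb1 itself was higher (0.78 ± 0.12, adjusted p = 5.79e-05).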

How the data were processed

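RNA from ear punch biopsies was sequenced as strand-directional libraries (NEBNext). The authors aligned reads to GRCm39 and deposited raw counts per gene of unique, unambiguous reads (Subread 2.10.3 in the submitters' processing notes). The strand setting of counting is not given in the sources used here. Of 55414 genes 54749 matched the annotation, and the rest held 0.0567% of counts. Genes were filtered with filterByExpr (minimum count 10, total 15), scaled by TMM and tested with edgeR 4.0.16 (R 4.3.3) by the quasi-likelihood F test over all 28 libraries with 1 term per group and Benjamini-Hochberg adjustment. DESeq2 1.42.0 was an alternative. SE is the log2 fold change over the square root of F. The test was checked on simulated data. Library totals were 17435116 to 23619586, and p-values measure the spread between mice.

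Members, gene lists and tests were chosen with earlier results of these data known. Named genes were the 10 protein-coding DEGs with the largest non-overlapping change each way (3 lower ones existed), leading list members, interaction extremes, the least reduced genes and DEGs absent without the inhibitor. Members of lists not described are not printed, and a few genes are not reported here. Genes named to spell out small counts, and the library split and hair follicle settings, were chosen after values were seen.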

Additional observations from a re-analysis of the deposited data

Results flagged for a closer look

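In a check of single mice, 20 of 328 group checks found a value further from the rest than Dixon's limit allows, in 6 libraries. By chance alone this limit is passed in a small share of groups, and 20 of 328 is also a small share. Whether 20 is more than chance alone gives was not tested.

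TPA+RGRN-305 10 was highest of its group for Il6 (210.2 normalized counts, nearest 69.5), Osm (130.1 normalized counts, nearest 49.4), Ptx3 (274 normalized counts, nearest 104), Junb (19194 normalized counts, nearest 12766), Egr2 (3356 normalized counts, nearest 2479.9), Dusp6 (5580.0 normalized counts, nearest 3888), Hsp90aa1 (1713 normalized counts, nearest 1381), Hsp90ab1 (29249 normalized counts, nearest 26272) and Cd14 (441 normalized counts, nearest 253). TPA+RGRN-305 10 was lowest of its group for Npbwr1 (81.1 normalized counts, nearest 139). RGRN-305 3 was highest of its group for Trp53inp1 (2866 normalized counts, nearest 1725). RGRN-305 3 was lowest of its group for Il6 (0.865 normalized counts, nearest 2.93). RGRN-305 2 was highest of its group for Il24 (2.99 normalized counts, nearest 0) and Slc7a1 (1510.4 normalized counts, nearest 1224). RGRN-305 1 was lowest of its group for Spred3 (29.1 normalized counts, nearest 103), Palm3 (119.6 normalized counts, nearest 196), Aoc2 (23.9 normalized counts, nearest 117) and Qtrt1 (149.7 normalized counts, nearest 188). RGRN-305 4 was highest of its group for Sostdc1 (688 normalized counts, nearest 580.3). TPA+RGRN-305 4 was lowest of its group for Bmpr1a (1669.6 normalized counts, nearest 1996).

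The TPA effect differed with and without the inhibitor, by the interaction term (edgeR adjusted p under 0.05), for 123 of the 164 genes named. Of all genes tested 50.8% passed this test. Some genes were named for their interaction, so the count is partly fixed by that choice. The interaction, as a log2 difference of TPA effects, was most negative for Adamts4 (-5.91), Acod1 (-5.66), Ptx3 (-5.43), Ifi202b (-4.70), Epgn (-4.67), Trem1 (-4.63), Sprr2g (-4.49), Sprr2h (-4.32), Fosl1 (-4.19), Il1b (-4.17), Nlrp3 (-4.11), Hbegf (-3.86), Has1 (-3.80), Areg (-3.79), Selp (-3.73), Clec4e (-3.73), S100a9 (-3.62) and Krt16 (-3.59). It was next for Egr4 (-3.50), Bcl3 (-3.47), Cxcl2 (-3.42), Ccl20 (-3.39), Ccl2 (-3.30), S100a8 (-3.30), Sprr2d (-3.23), Sele (-3.17), Csf3r (-3.11), Nod2 (-3.09), Slpi (-3.08), Tnfaip3 (-3.04), Cxcr2 (-3.0), Cxcl1 (-2.96), Ch25h (-2.96), Arc (-2.92), Plaur (-2.90) and Smox (-2.89). Further negative values were those of Odc1 (-2.79), Osm (-2.78), Cd14 (-2.72), Icam1 (-2.70), Phlda1 (-2.69), Nppb (-2.49), Ptges (-2.48), Cyp2g1 (-2.47), Ptgs2 (-2.46), Fst (-2.45), Ereg (-2.41), Mmp3 (-2.32), Btg2 (-2.30), Dusp6 (-2.25), Dusp5 (-2.18), Krt6b (-2.04), Pla2g4e (-1.98) and Vcam1 (-1.78). Smaller ones were those of Ivl (-1.78), Dnajb1 (-1.76), Spry4 (-1.76), Krt6a (-1.75), Nfkbiz (-1.75), Nfkbia (-1.67), Ptgir (-1.67), Egr2 (-1.65), Mmp9 (-1.65), Ikzf4 (-1.65), Irf1 (-1.60), Junb (-1.58), Nr4a1 (-1.56), Slc7a1 (-1.49), Syn3 (-1.46), Rrs1 (-1.43), Tgfb1 (-1.40) and Egr3 (-1.37). Then came Sat1 (-1.36), Itga6 (-1.32), Hsp90aa1 (-1.30), Hspa8 (-1.26), Ier3 (-1.25), Bag3 (-1.24), Relb (-1.23), Tnf (-1.16), Itga3 (-1.12), Nop56 (-0.96), Tlr2 (-0.94), mt-Nd6 (-0.83), Jun (-0.72), Krt17 (-0.70), Srm (-0.69), Arg2 (-0.68), Ptger4 (-0.64) and Lamb3 (-0.63). The least negative were Il36b (-0.56), Wnt10a (-0.51), Rgs12 (-0.45), Tgfb1i1 (-0.43), Tcf7 (-0.43), Qtrt1 (-0.37) and Hsp90ab1 (-0.35). It was positive for Trp73 (4.67), Mesp2 (3.26), Trpv6 (3.18), Axin2 (3.13), Wnt3a (3.08), Npbwr1 (2.90), Art4 (2.81), Palm3 (2.63), Sostdc1 (2.03), Efcc1 (1.76), Fzd10 (1.73), Iffo1 (1.64), Sesn1 (1.57), Wnt10b (1.39), Cdkn1b (1.25), Dst (1.24), Hsf2 (1.23) and Wnt16 (1.13). Smaller positive values were those of Krt15 (0.99), Hpgd (0.86), Mki67 (0.66), Lgr4 (0.56), Ccnd1 (0.51), Cd247 (0.38), Cd3g (0.34) and Rhbdf1 (0.27).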

How the results depend on the processing

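Under library totals alone TPA versus Vehicle had 951 higher and 1876 lower DEGs (3909 and 9980 genes past the adjusted p), and the interaction 1570 and 662 (8390 and 2687). The median over all genes moved by -0.29 and 0.29 (log2) there, and the share of higher calls was 28.1% in place of 47.9% and 75.7% in place of 50.9%. In TPA+RGRN-305 versus RGRN-305 the share was 65.2% in place of 62.1%. Without the low-count filter 642 genes passed as lower. Without the mean count limit that comparison had 233 higher and 71 lower DEGs, the interaction 1482 higher and TPA versus Vehicle 1972 lower. Without the libraries low in Gm11940, 798 genes passed as higher and 354 as lower, and 144 of the genes lowered without the inhibitor passed. With the split as a term 591 passed as lower. Without the libraries with hair follicle transcripts 1001 and 507 passed, with 432 of the raised and 146 of the lowered genes. The cause was not tested.

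Replicate numbers did not pair the samples, since same-numbered TPA+RGRN-305 and RGRN-305 mice correlated at -0.088 to 0.024 over 4 pairs. A replicate block gave 4 lower DEGs, 887 higher and 321 lower genes past the adjusted p, and 107 of the lowered genes. For Mmp9 the block gave a log2 fold change of 0.051.

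A fit of only the 14 libraries compared, with the count limit over these, gave 123 higher and 6 lower DEGs. There 1218 genes were higher and 701 lower past the adjusted p. In that fit 20 named genes lost their call. They were Arg2, Bmpr1a, Casp14, Ccng1, Cd247, Cd68, Dnajb1, Dnd1, Efcc1, Gm11940, Gm55161, Iffo1, Itga6, Klk5, Lamb3, Palm3, Perp, Ptger4, Syn3 and Tgm3. Wnt3a gained a call (adjusted p = 0.0492). Leaving out 1 mouse at a time gave 127 to 170 higher and 5 to 10 lower DEGs, and 1126 to 1694 higher and 660 to 1059 lower genes past the adjusted p. Of the raised genes 560 to 805 passed and of the lowered ones 174 to 316. Without RGRN-305 3 there were 5 lower DEGs, 660 lower genes and 174 lowered genes passing, and without RGRN-305 1 663 lower genes. The sign of Mmp9 (-0.02) also turned without hair follicle libraries (0.12) and ranged between -0.075 and 0.084 without single mice. Spred3 (0.27) spanned -0.022 without RGRN-305 1 to 0.48 without RGRN-305 3. Hsp90aa1 (0.10) was -0.081 without hair follicle libraries and Gm55161 was 0.0062 without the libraries low in Gm11940.

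Named genes that lost their call with the split as a term, without the libraries low in Gm11940 and also without those with hair follicle transcripts were Arg2, Casp14, Ccnd1, Ccng1, Cd14, Cd247, Cd3e, Cd3g, Cd68, Csf3, Dnd1, Dsg1a, Gm11940, Gm5148, Hpgd, Ifit3, Ikzf4, Il19, Jun, Mki67, mt-Nd6, Oaz2, Palm3, Perp, Ptger4, Retnlg, Syn3, Tgm3, Tlr2, Top2a, Trp53inp1 and Wnt10b. Lost with the split as a term and without the libraries low in Gm11940, of these 3 settings, were Efcc1, Iffo1, Il36b, Klk5 and S100a9. Lost with the split as a term and without the hair follicle libraries, of these 3 settings, was Gm55161. Lost without the libraries low in Gm11940 and without the hair follicle libraries, of these 3 settings, were Bag3, Bmpr1a, Dnajb1, Itga6, Klf2, Krt15, Lamb3, Rps10 and Sat1. Lost with the split as a term alone, of these 3 settings, were S100a8 and Selp. Lost without the libraries low in Gm11940 alone, of these 3 settings, were Aoc2 and Tamalin. Lost without the hair follicle libraries alone, of these 3 settings, were Btg2, Dst, Erbb3, Hsf2, Mmp3, Nfkbia, Ptges and Ptgs2. 

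Of 14 fits that each left out 1 mouse, named calls were lost as follows. Gm55161 lost its call in 11 fits. Casp14 lost its call in 10 fits. Ccng1, Cd3e, Cd68 and Perp lost their call in 8 fits. Arg2, Efcc1, Ifit3, Tgm3 and Wnt10b lost their call in 7 fits. Klk5 and Lamb3 lost their call in 6 fits. Retnlg lost its call in 5 fits. Cd3g and Il19 lost their call in 4 fits. Csf3, Itga6, Palm3, Ptger4 and Sat1 lost their call in 3 fits. Bag3, Ccnd1, Dnajb1, Gm11940, Hpgd, Mki67 and Top2a lost their call in 2 fits. Lost in 1 fit, that without RGRN-305 1, were Bmpr1a, Iffo1 and Il36b. Lost in 1 fit, that without RGRN-305 3, were Cd14, Cd247, Dnd1, Dst, Erbb3, Ikzf4, Oxtr, Ptges and Trp53inp1. Lost in 1 fit, that without RGRN-305 4, was Syn3.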
